A study of Mus musculus with 10 samples.

Results

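Revival stem cells (RSC) were taken as the cells to which the authors' deposited annotation gives the class RSC. There were 70 of them among 25204 annotated mouse cells, of which 22139 came from intestinal organoids and the others from colonic crypts. They were described against the stem cells (SC, 5197 cells) and transit amplifying cells (TA, 7353 cells) of the same 5 libraries. The study profiled single cells of small-intestinal organoids (8 libraries) and of colonic crypts (2 libraries) with droplet 3′ libraries that count unique molecular identifiers (UMIs), so that each transcript molecule is counted once. ENR-organoids (3 libraries, at passages 2, 7 and 3, the last one from primary crypts) grew with R-Spondin 1, Noggin and EGF. The medium of Hyper-organoids (3 libraries) had 8 components, the growth factors EGF and bFGF, R-Spondin 1 conditioned medium, and the small molecules VPA, EPZ6438, Pexmetinib, LDN193189 and GSK-3 Inhibitor XV. Replicate 1 of the Hyper-organoids was at passage 1 and replicate 2 at passage 6, both derived from ENR-organoids, and replicate 3 was at passage 3 and derived from primary crypts. The -VE-organoids (2 libraries, passages 1 and 6, both derived from ENR-organoids) grew in the same medium without VPA, a histone deacetylase inhibitor, and EPZ6438, an inhibitor of the EZH2 methyltransferase. All organoids came from crypts of the proximal small intestine. Colonic crypts came from normal mice and from mice given dextran sulfate sodium (DSS), a detergent that injures the colon, with 1 library each. Nothing in the labels says that libraries of one medium came from separate mice, so the p-values below measure only the spread between these libraries.

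Revival stem cells are rare cells that appear in the mouse small intestine after the crypt-base stem cells have been damaged, and they can rebuild the stem cell compartment. They are known for the secreted chaperone clusterin (*Clu*), for transcripts shared with fetal gut and wound epithelium such as *Ly6a* (Sca1) and *Anxa1*, and for dependence on YAP, the transcriptional effector of Hippo signaling. Crypt-base stem cells are instead maintained by Wnt signaling and express *Lgr5*, *Ascl2*, *Olfm4* and *Smoc2*, and transit amplifying cells are their rapidly dividing daughters.

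The RSC fell in 5 libraries only. -VE-organoids held 8 of 2390 and 17 of 4293 kept cells, that is 0.335% (exact binomial 95% interval 0.145 to 0.658) and 0.396% (0.231 to 0.633). Hyper-organoids held 5 of 2812, 14 of 3523 and 26 of 1983 cells, or 0.178% (0.0578 to 0.414), 0.397% (0.217 to 0.666) and 1.31% (0.858 to 1.92). The share was thus highest in the Hyper-organoids from primary crypts, and the intervals of the other Hyper-organoid libraries overlapped those of the -VE-organoids. None was annotated among 2189, 2601 and 2348 cells of ENR-organoids, where the same interval for a count of 0 reaches up to 0.168%, 0.142% and 0.157%. All of these intervals and limits cover counting error only, and the shares were not tested, because the genes that define the cluster differ between media. RSC carried 3382113 UMIs in all, with library sums of 327673, 612219, 266921, 664736 and 1510564. Here and below, values of single libraries are given in the order -VE-organoid replicates 1 and 2 and Hyper-organoid replicates 1, 2 and 3. The median RSC held between 31509 and 53797.5 UMIs per library, and 5350 to 6900 genes. Of 79 barcode sequences found in more than 1 library, 0 belonged to an RSC.

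The label was then checked against its markers in the summed counts of each library, given as counts per 1000000 UMIs (CPM). *Clu* (chr14:65968483-65981547, plus strand, mm10) reached 1709, 266, 671, 4594 and 1856 CPM in RSC, against 2.23, 3.92, 6.19, 42.9 and 27.4 in SC. *Ly6a*, which encodes a GPI-anchored surface protein (chr15:74994877-74998031, minus strand), reached 827, 969, 1173, 1506 and 1789 CPM in RSC and 1.55, 3.84, 13.4, 22.6 and 76.9 in SC. *Anxa1*, a calcium-dependent phospholipid-binding protein with anti-inflammatory roles (chr19:20373428-20390944, minus strand), stood at 345, 390.4, 307, 472.4 and 335 CPM against 0.484, 2.00, 9.10, 12.6 and 21 in SC. All 3 were higher in RSC than in SC and TA in every library, with no overlap between classes. The levels of *Anxa1* in RSC were the most even of the 3 (370 ± 64.6 CPM, mean ± SD, n = 5 libraries), and those of *Clu* the least (1819 ± 1692). *Basp1*, which encodes a membrane-associated protein (chr15:25363277-25413764, minus strand), did not mark RSC throughout: it stood at 39.7, 0, 0, 232 and 43.7 CPM, and was absent from the RSC of -VE-organoid replicate 2 and Hyper-organoid replicate 1. *Epcam*, the epithelial adhesion molecule, was found in 70 of 70 RSC, and *Ptprc*, which marks leukocytes, had no UMI in the RSC, SC or TA sums. These genes defined the cluster, so the levels of RSC against SC and TA are given here and below as a description, with no test.

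**Figure D1:**
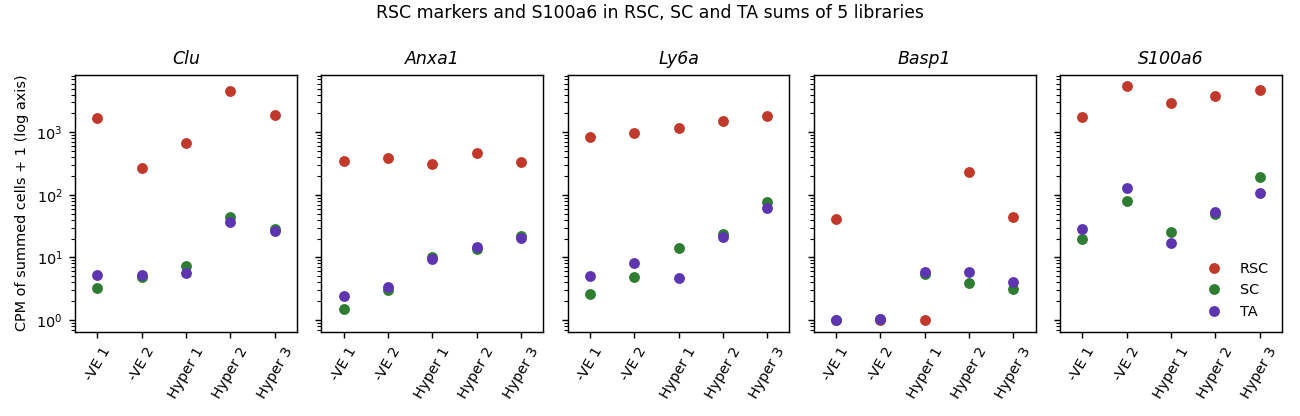
Levels of the RSC markers *Clu*, *Anxa1*, *Ly6a* and *Basp1* and of *S100a6* in summed RSC, SC and TA of 5 libraries (x axis), as CPM + 1 on a log axis; 1 point per library and class. *Clu*, *Anxa1*, *Ly6a* and *S100a6* of RSC lie above SC and TA in each library, whereas *Basp1* is at 0 in RSC of 2 libraries.

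In single cells, 60 of 70 RSC held UMIs of *Clu*, *Anxa1* and *Ly6a* together (85.7%), 5 held *Anxa1* and *Ly6a* without *Clu*, 3 held *Anxa1* alone, 1 *Ly6a* alone and 1 none of them. *Anxa1* was seen in 68 cells, *Ly6a* in 66, *Clu* in 60 and *Basp1* in 14. To compare classes at one depth, each cell was thinned to 10000 UMIs, which left 66 of the 70 RSC. All 3 markers were then seen in 48 of 66 RSC (72.7%), 31 of 5095 SC (0.608%) and 37 of 7000 TA (0.529%). These shares pool cells of 5 libraries that differ among themselves and rest on genes that defined the class, so no interval is given. Goblet cells, which should lack the combination and so show the background of free RNA, had it in 1 of 988 cells (0.101%). Without thinning the shares in SC, TA and goblet cells were 3.83%, 3.33% and 0.478%, at median depths of 45390.5 UMIs for the RSC that entered the thinning, 37885 for SC, 51331.5 for TA and 33666.5 for goblet cells. The combination was least common in RSC of -VE-organoid replicate 2, with 5 of 15 thinned cells (33.3%), and was found in 25 of 25 in Hyper-organoid replicate 3. The other libraries had 5 of 7 (-VE-organoid replicate 1), 3 of 5 (Hyper-organoid replicate 1) and 10 of 14 (Hyper-organoid replicate 2). *Basp1* was seen in 10 of 66 thinned RSC (15.2%), above goblet cells (2.53%) and SC (1.81%).

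Across the 8717 genes with a mean of at least 10 CPM in RSC, SC or TA, 78 (0.895%) were at least 2-fold higher in RSC than in both SC and TA in each of the 5 libraries, on the log2(CPM + 10) scale, which understates differences of low genes. A further 17 genes (0.195%) were at least 2-fold lower. The median difference over all genes was 0.03 against SC and -0.01 against TA, and being above SC in every library by any amount was common (17.4% of genes). Of the genes near the threshold, *2200002D01Rik*, *F11r* and *Dstn* stood just inside, with lowest differences of 1.02, 1.03 and 1.04, and *Gprc5a* and *Capg* just outside, with 0.99 each. The pseudocount decided how many genes were counted, with 141 higher and 31 lower at 1 CPM and 32 and 5 at 50 CPM.

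Among the 59 of these 78 genes for which the RefSeq promoter table (GRCm38.p6) has a window, the 250 bases before the start were searched on both strands for TGANTCA, the core that AP-1 factors of the Fos and Jun families bind, and GGAATG, the core bound by TEAD factors, the DNA-binding partners of YAP. When both strands are read the 2 patterns can share bases, and 1 of the 59 genes, against 1.13% of all genes in the table, held both. TGANTCA was found for 17 of 59 genes (28.8%), against 7.82% of all 27025 genes in the table and 5.15% of the 6934 tested genes with a window. It was also found for 2 of 13 of the lower genes (15.4%). GGAATG was found for 10 of 59 (16.9%), against 14.4% and 12.4%. Counted over windows, since some genes have several, TGANTCA was in 21% of 81 windows of the higher genes and 4.27% of those of tested genes. Shown here are 4 leading genes with a single gene start and a TGANTCA match, in capitals, each written 5′ to 3′ on the strand of its gene.
*S100a11*, chr3:93520246-93520495, plus strand: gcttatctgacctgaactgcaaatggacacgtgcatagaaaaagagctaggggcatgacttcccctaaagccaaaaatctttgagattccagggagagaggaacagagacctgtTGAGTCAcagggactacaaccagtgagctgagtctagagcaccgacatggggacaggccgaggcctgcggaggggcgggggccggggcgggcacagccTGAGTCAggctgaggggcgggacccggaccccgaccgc
*Sprr1a*, chr3:92485882-92486131, minus strand: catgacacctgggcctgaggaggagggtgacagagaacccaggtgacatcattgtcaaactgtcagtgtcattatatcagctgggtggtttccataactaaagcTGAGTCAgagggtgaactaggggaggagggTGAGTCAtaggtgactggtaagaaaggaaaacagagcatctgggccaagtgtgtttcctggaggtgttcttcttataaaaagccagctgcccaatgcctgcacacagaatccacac
*Plaur*, chr7:24462233-24462482, plus strand: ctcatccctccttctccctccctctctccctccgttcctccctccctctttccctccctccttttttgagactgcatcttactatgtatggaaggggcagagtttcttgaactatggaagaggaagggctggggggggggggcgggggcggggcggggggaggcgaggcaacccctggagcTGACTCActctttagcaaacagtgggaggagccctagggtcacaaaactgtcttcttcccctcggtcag
*Capn2*, chr1:182517611-182517860, minus strand: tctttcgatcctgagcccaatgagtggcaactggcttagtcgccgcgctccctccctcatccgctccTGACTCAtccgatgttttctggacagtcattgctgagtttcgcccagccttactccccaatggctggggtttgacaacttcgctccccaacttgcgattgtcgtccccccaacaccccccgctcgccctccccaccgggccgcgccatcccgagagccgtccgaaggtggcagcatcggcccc
The matches of *S100a11* began 136 and 38 bases before the start, those of *Sprr1a* 146 and 116, that of *Plaur* 69 and that of *Capn2* 183. The window of *S100a6*, the gene that led the ranking below, held neither motif, and the table has no window for *Clu* or *Ly6a*. A match of letters is not evidence of binding, and no binding was measured in these libraries.

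S100 genes and annexins stood high among the genes higher in RSC, ranked by the smallest of their 10 differences (2 classes in 5 libraries). *S100a6* (chr3:90612882-90624181, plus strand), an EF-hand protein of dividing and migrating cells, stood at 1724, 5452, 2922, 3782 and 4748 CPM in RSC and at 18.4, 77.8, 24.9, 48.9 and 195 CPM in SC, with differences on the log2 scale from 4.54 to 6.83. Thus its lowest RSC level was above its highest SC level, as it was for *Clu*, *Anxa1* and *Ly6a*. Of the 8 S100 genes tested, 5 were at least 2-fold higher than both classes in every library, namely *S100a6*, *S100a10*, *S100a11*, *S100a14* and *S100a16*, and the list had a median difference of 1.52 against SC. *S100a11* reached 1813, 2344, 1113, 2282 and 2392 CPM (SC 177 to 384) and *S100a14* 308, 581, 149.9, 284 and 312 (SC 12.4 to 25.5). Among 10 annexins, which bind membrane phospholipids in the presence of calcium, 4 were counted higher, *Anxa1*, *Anxa2*, *Anxa3* and *Anxa5*. *Anxa3* stood at 452, 568, 244, 418 and 504 CPM against 5.49 to 21.8 in SC. *Anxa2*, which with *S100a10* forms a complex at the plasma membrane, stood at 2777, 2619.98, 884, 1129.77 and 1574 CPM against 174 to 260. *Capn2*, a calcium-dependent protease of the cytoskeleton, was even across RSC (48.8, 83.3, 67.4, 82.7 and 78.1 CPM), whereas in SC it ranged from 0.839 and 1.55 in -VE-organoids to between 10.4 and 11.6 in Hyper-organoids.

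**Figure D2:**
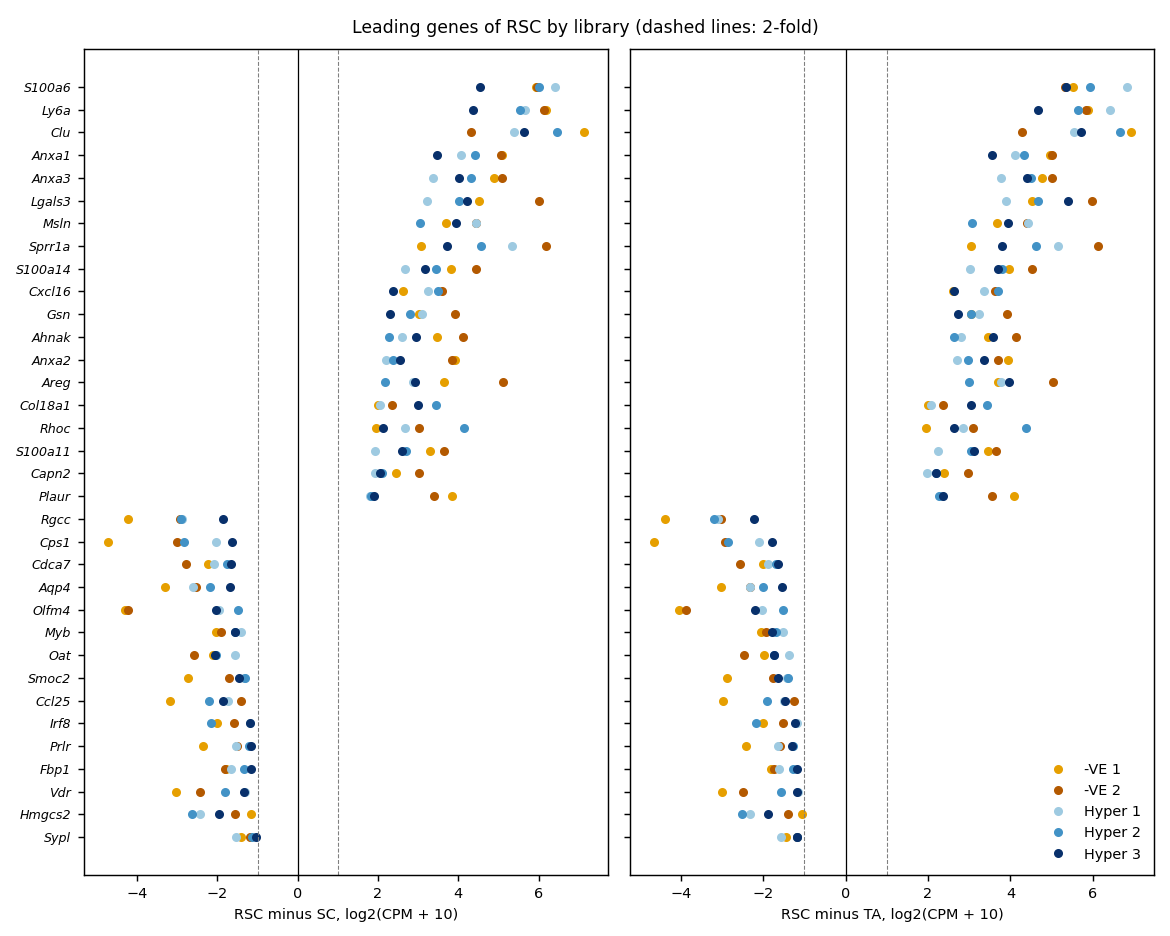
Differences between RSC and SC (left) and between RSC and TA (right) on the log2(CPM + 10) scale for the leading genes of RSC, 1 point per library; dashed lines mark 2-fold and the solid line no difference. The 19 higher genes shown lie to the right of the 2-fold line and the 15 lower genes to its left in all 5 libraries, with *S100a6* between 4.54 and 6.83.

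Genes of fetal and wound epithelium formed the next group. Of 24 tested, 10 were at least 2-fold higher in every library (*Il1rn*, *Msln*, *Krt7*, *Anxa3*, *Sprr1a*, *Plaur*, *F3*, *Cldn4*, *Tnfrsf12a* and *Emp1*) and 0 at least 2-fold lower, although 2 were below SC and 1 below TA by some amount in every library. The median difference was 1.88 against SC and 2.10 against TA. *Msln*, the surface glycoprotein mesothelin, stood at 119, 206, 206, 73.7 and 144 CPM in RSC, and at no more than 0.0770 CPM in any SC sum. It was seen in 26 of 70 RSC, and 1 cell held 100% of its UMIs in Hyper-organoid replicate 1 and 70.5% in replicate 3. *Sprr1a*, a cornified envelope protein induced in wounded epithelia, stood at 76.3, 722, 453, 256 and 136 CPM (SC 0.133 to 1.55), but 1 cell held 92% of its UMIs in -VE-organoid replicate 1, and 1 of 5 cells held 100% of the 121 in Hyper-organoid replicate 1. *Il1rn*, which encodes the interleukin-1 receptor antagonist, stood at 101, 201, 82.4, 25.6 and 114 CPM (SC 0.29 to 1.65). *Plaur*, the receptor of the urokinase plasminogen activator, stood at 226, 162, 71.2, 75.2 and 89.4 CPM (SC 6.42 to 16.5) and *Tnfrsf12a*, the receptor of TWEAK, at 317, 248, 386, 397 and 312 (SC 63.9 to 103). *Lgals3*, a galectin, stood at 473, 1604, 442, 463 and 1027 CPM against 11.1 to 46.0 in SC. *Cxcl16*, a transmembrane chemokine, stood at 58.0, 136, 142, 167 and 82.1 CPM against 1.06 to 7.72. The study's own list of genes raised in regenerating epithelium was less uniform, with 5 of 45 counted higher (*Ier3*, *Ly6a*, *Plk2*, *S100a11* and *Sprr1a*) and a median of 0.52 against SC. Its list of lowered genes had 2 of 39 counted lower (*Oat* and *Vdr*) and a median of -0.50.

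Growth factor and YAP/TAZ target genes were higher in part. *Areg*, which encodes the EGF receptor ligand amphiregulin, stood at 418, 818, 802, 164 and 410 CPM in RSC (SC 14 to 101), the only 1 of 8 EGF family genes counted higher. In -VE-organoid replicate 1 a single cell held 81.8% of its UMIs. Of 14 YAP/TAZ targets tested, *Ctgf*, *Areg*, *Myof* and *F3* were counted higher, 12 were above SC in every library, and the median difference was 1.03 against SC and 1.20 against TA. *Ctgf*, a secreted matricellular protein, ranged from 18.7 to 366 CPM among RSC sums (76.3, 21.2, 18.7, 366 and 58.3) and from 1.15 to 4.16 in SC. A single cell held 92% of its UMIs in -VE-organoid replicate 1 and 80% of the 5 in Hyper-organoid replicate 1. *Cyr61*, its relative, was above SC in every library without reaching 2-fold in each (104, 35.9, 157, 293 and 58.3 CPM, SC 21.7 to 80.7). The genes of the Hippo core and the Tead factors themselves were not among those counted: 0 of 12 were 2-fold higher or lower, with a median of -0.01 against SC. Of 18 AP-1 and immediate early genes, *Ier3* alone was counted higher (128, 103, 288, 298 and 232 CPM), and the median was 0.69. *Fosl1*, an AP-1 subunit, stood at 30.5, 16.3, 15, 7.52 and 7.28 CPM against 0.48 to 1.87 in SC, above SC and TA in each library, while *Fos* was above SC in only 2 of 5. Genes that respond to tissue dissociation had a median of 0.34 over 16 tested, and none of the 16 was counted higher or lower.

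Simple epithelial keratins and some genes of the actin cytoskeleton were also higher. *Krt7*, *Krt8*, *Krt18* and *Krt19* were counted among 6 keratins. *Krt7*, a keratin of ducts and fetal gut, stood at 528, 1194, 611, 1044 and 1761 CPM (SC 127 to 201), and *Krt19* at 2768, 5550.3, 3068, 2765 and 5336 CPM (SC 597 to 918). Of 23 genes on the actin cytoskeleton list, 19 were above SC in every library, and the median was 1.05. Counted were 5, among them *Tpm4*, *Cnn2* and *Flna*, and also *Lmna*, which encodes a lamin of the nucleus. *Gsn*, which severs actin filaments, stood at 97.7, 212, 146, 189.5 and 182 CPM (SC 3.19 to 29.0), and *Rhoc*, a small GTPase of cell migration, at 33.6, 88.2, 93.7, 338 and 93.3 (SC 1.26 to 13.8). *Col18a1*, a basement membrane collagen, stood at 30.5, 42.5, 41.2, 111 and 98.0 CPM (SC 0.0645 to 3.53). Integrins and laminins did not reach the count (0 of 17, median 1.05). Of 7 claudins, *Cldn4* alone was counted, at 275, 361, 1019, 725 and 250.2 CPM (SC 16.9 to 101).

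Crypt-base genes were lower in RSC in part. *Lgr5* stood at 33.6, 24.5, 52.5, 61.7 and 58.9 CPM, against 97.9, 79.8, 161, 163 and 122 in SC, so it was lower in every library but within 2-fold in at least 1 comparison. Of 24 crypt-base and Wnt target genes, 12 were below SC in every library (13.8% of all genes were), 11 were below TA, and 4 were at least 2-fold below both classes, *Smoc2*, *Cdca7*, *Olfm4* and *Aqp4*, with a median of -0.51 for the list. *Olfm4*, a secreted glycoprotein of crypt-base cells, stood at 116, 84.9, 154, 1.5 and 1.32 CPM in RSC and 2462, 1768, 630, 22 and 36.5 in SC. Both classes of Hyper-organoid replicates 2 and 3 thus had little *Olfm4*. In Hyper-organoid replicate 1, 1 cell held 85.4% of the 41 *Olfm4* UMIs of RSC. *Smoc2*, a matricellular protein, stood at 24.4, 70.2, 169, 190 and 138 CPM (SC 220 to 487) and *Cdca7*, a chromatin factor and MYC target, at 36.6, 21.2, 45.0, 63.2 and 60.2 (SC 205 to 237). Leading the lower genes, *Rgcc*, a cell cycle regulator, stood at 6.10, 32.7, 56.2, 45.1 and 101 CPM (SC 289 to 474), and *Cps1*, the first enzyme of the urea cycle, at 15.3, 67.0, 105, 49.6 and 94.0 (SC 316 to 661). *Cd44* went the other way, above SC in every library at 211, 75.1, 217, 235 and 138 CPM (SC 59.1 to 90.6).

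Most G2/M genes stood below TA, and S phase genes did so in part. *Mki67*, a marker of dividing cells, was at 143, 52.3, 78.7, 55.7 and 48.3 CPM in RSC, 39.6 to 65.7 in SC and 199 to 233 in TA. The RSC with most *Mki67* held 59.6%, 65.6%, 100%, 51.4% and 30.1% of its UMIs in the single libraries. After thinning, 19 of 66 RSC held a *Mki67* UMI (28.8%), with 3 of 7, 4 of 15, 1 of 5, 3 of 14 and 8 of 25 in the single libraries, against 31.7% of SC, 85.1% of TA, 43.6% of goblet cells and 12% of enterocytes, at median depths of 33666.5 UMIs in goblet cells and 37434 in enterocytes. Single RSC held up to 28 *Mki67* UMIs, and that cell also had 38 of *Top2a*, another G2/M gene. Of 33 G2/M genes, 29 were below TA in every library, as were 19.7% of all genes, but only 3 were 2-fold below it in each, with a median of -1.40 against TA and 0.55 against SC. Of 32 S phase genes, 14 were below TA in every library and 0 by 2-fold, with medians of -0.75 against TA and -0.53 against SC. Cell cycle inhibitors and p53 targets were higher in part. *Cdkn1a*, which encodes p21, stood at 180.1, 158, 536, 326 and 323 CPM (SC 23.2 to 102) and, with *Ccng1* and *Plk2*, was among 3 of 14 p53 targets counted, a list with a median of 1.09 against SC. *Cdkn2b* stood at 42.7, 53.9, 56.2, 49.6 and 78.1 CPM (SC 2.96 to 11.9). *Cdkn2a* stood at 3.05, 3.27, 63.7, 40.6 and 185 CPM in RSC and 0.226, 0.0266, 14.6, 4.51 and 29.1 in SC. Its values were higher in Hyper-organoids in both classes, but it was not called in the comparison of media in RSC below. Groups without overlap were common there, at 29.4% of all genes tested. Glycolysis, cholesterol synthesis, interferon, and PRC2 and histone deacetylase genes had medians between -0.14 and 0.07 against SC, and none of their members was counted in either direction.

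Markers of other cell types were summed in the same libraries. Summed stromal markers reached 0 to 1.5 CPM in RSC, endothelial 0 to 3.05, squamous 0 to 7.94 and tuft 1.63 to 11.2. Immune markers reached 3.01 to 30.5 CPM (SC 4.08 to 6.79). Goblet markers stood at 46.6 to 459 CPM, against 177 to 381 in SC, and none of these lists had a member at least 2-fold higher in every library. Paneth markers were highest in RSC of -VE-organoids, at 644 and 390.4 CPM against at most 269 in SC, and enterocyte markers in those of -VE-organoid replicate 2, at 546 CPM against at most 310. Enterocyte progenitor markers ranged from 179 to 2133 CPM in RSC, against at most 823 in SC and 933 in TA, and 1935 of the upper value, in -VE-organoid replicate 1, was *Dmbt1*, a mucosal scavenger receptor. M cell markers reached 97.7 CPM in that same library (SC at most 24.1), and enteroendocrine markers 37.5 CPM in Hyper-organoid replicate 1 (SC at most 10.7). Gastric markers stood at 0 to 70.2 CPM, and the upper value came from *Tff2* in 1 cell of -VE-organoid replicate 1. The part of these transcripts in the differences above was not tested. The median share of mitochondrial UMIs was lower in RSC than in SC in all 5 libraries (5.77% against 7.63% in -VE-organoid replicate 1, for example). Without cells above the 95th percentile of UMIs of their library, 64 genes were counted higher, 62 of them among the 78, and 12 were counted lower. *Sprr1a* lost its place there, with a lowest difference of -0.41.

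RSC varied widely from cell to cell. Their *Clu* UMIs ranged from 0 to 254 (median 50) in -VE-organoid replicate 1, from 0 to 63 (median 4) in replicate 2, and from 0 to 154 (median 6), 2 to 1230 (median 45.5) and 0 to 1230 (median 32.5) in Hyper-organoid replicates 1, 2 and 3. The 8 RSC of -VE-organoid replicate 1 were of different kinds, a split chosen after the values were seen, and whether all 8 belong to one class was not tested. In 4 of them, of 36199 to 55855 UMIs, *Clu* counted 94 to 254 UMIs together with 40 to 54 of *Spp1*, which encodes the matrix protein osteopontin, 38 to 90 of *Wfdc2*, a secreted protease inhibitor, and 10 to 35 of the mucin gene *Muc1*. The other 4, of 1771 to 56526 UMIs, held none of *Spp1*, *Wfdc2* and *Muc1*, and 0 to 6 UMIs of *Clu*, but 0 to 112 of *Areg*. *Ly6a* was found in all 8 (17 to 37 UMIs and 1 to 102), and *Anxa1* at 12 to 22 and 0 to 39 UMIs. No RSC of the other 4 libraries held *Spp1*, *Wfdc2* and *Muc1* together, but 2 cells of Hyper-organoid replicate 2 held *Spp1* and *Wfdc2* with *Clu* and lacked *Muc1*. They had 43 and 28 UMIs of *Spp1*, 43 and 49 of *Wfdc2* and 1230 and 133 of *Clu*. The *Clu* level of 1709 CPM in this library therefore came from 5 of its 8 cells, nearly all of it from the 4 cells with *Spp1*.

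**Figure D3:**
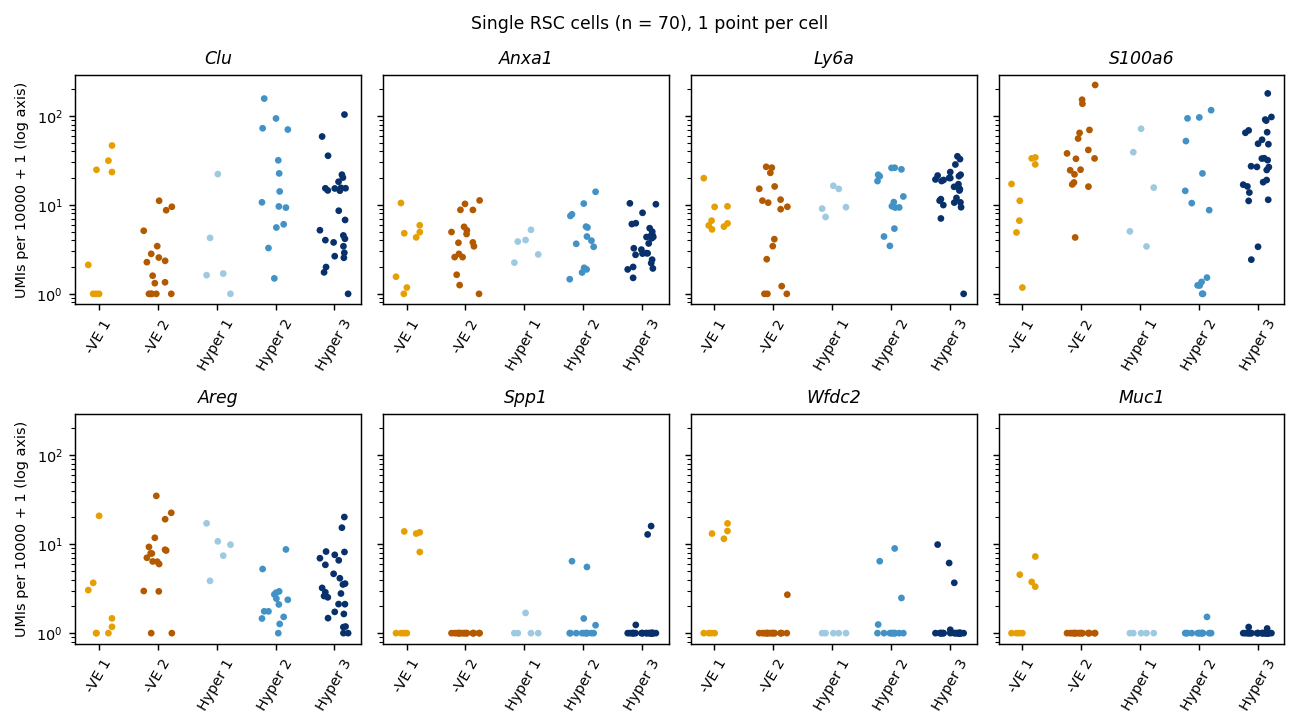
UMIs per 10000 UMIs, + 1, on a log axis, for 8 genes in each of the 70 RSC, 1 point per cell, by library (x axis). *Anxa1*, *Ly6a* and *S100a6* are found in nearly every cell, *Clu* is at 0 in some cells and high in others, and *Spp1*, *Wfdc2* and *Muc1* are high in 4 of 8 cells of -VE-organoid replicate 1.

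RSC grown with and without VPA and EPZ6438 were then compared. Summed RSC of the 3 Hyper-organoid libraries were set against those of the 2 -VE-organoid libraries, a contrast that did not choose the cells. Hyper-organoid replicate 3 came from primary crypts and both -VE-organoid libraries from ENR-organoids, so its origin cannot be told apart from the medium. With edgeR's quasi-likelihood test, 35 of 7148 genes (0.49%) passed an adjusted p of 0.05 and 2-fold, of which 20 rose (0.28%) and 15 fell (0.21%) in Hyper-organoids. The sums are small, and the calls rested on single libraries: with each library left out in turn, between 0 and 36 genes were called, and 0 genes were called in all 5 fits. Replicates 1 and 2 of the 2 media had the same origin and passage, and with culture series as replicate block 11 genes were called, 5 of them among the 35. Without Hyper-organoid replicate 3 edgeR called 0 genes, with 563 at an unadjusted p below 0.05. Without Hyper-organoid replicate 1 it called 13 and without Hyper-organoid replicate 2 it called 16. DESeq2 called 95 genes, including all 35. Groups without overlap in CPM were common, at 29.4% of all genes tested, so absence of overlap is no support for a gene.

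The 4 markers chose the cells in both media, so their values are given with no test. For edgeR log2 values, SE means the absolute value divided by the square root of the test's F statistic. It is approximate, and poorly defined where a group is all zeros or the value is near 0. The log2 fold change in RSC (Hyper over -VE) was 1.25 for *Clu* (SE 0.80), from 0.38 to 3.08 with a library left out, and 2.58 for *Basp1* (SE 1.41), from 0.94 to 9.19. It was -0.01 for *Anxa1* (SE 0.24), from -0.19 to 0.11, and 0.71 for *Ly6a* (SE 0.21), from 0.56 to 0.85. *Ly6a* was higher in each Hyper-organoid library than in each -VE-organoid library, whereas the groups overlapped for *Clu* and *Anxa1*. Among leading genes, the log2 values were -1.19 for *Anxa2* (SE 0.22), -1.29 for *Plaur* (SE 0.26) and 0.06 for *S100a6* (SE 0.39), the last from -0.57 to 1.15 with a library left out.

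The largest rises were those of the brain-expressed X-linked genes *Bex4* and *Bex1*. *Bex4* was at 0 in both -VE-organoid libraries and at 74.9, 334 and 190 CPM in Hyper-organoids, at least 67.9-fold higher over the pooled sums, with a floor of 3 UMIs for -VE-organoids, and *Bex1* was at 0 and 0 against 67.4, 340.0 and 146 CPM (at least 59.7-fold). Both were called (edgeR adjusted p = 0.0314 and 0.0402), although 95% of the 20 *Bex4* UMIs of Hyper-organoid replicate 1 came from 1 of its 5 cells. *Serpine2*, a protease inhibitor (0 and 0 against 37.5, 51.1 and 53.6 CPM, at least 16-fold, adjusted p = 0.0243), and *Tesc*, a calcium-binding protein (0 and 0 against 37.5, 24.1 and 31.1 CPM, at least 9.36-fold, adjusted p = 0.0428), had the same pattern. *Lgals1*, a galectin of mesenchymal and fetal cells, stood at 790, 1229 and 450.2 CPM in RSC of Hyper-organoids, against 15.3 and 71.9 without VPA and EPZ6438 (log2 4.08, SE 0.60, edgeR adjusted p = 0.0321). Its log2 value ranged from 3.45 to 5.73 with a library left out. Other called rises started from very few UMIs, so CPM is given in place of a fold. *Hspb1*, a small heat shock protein, had 1 UMI in all RSC of -VE-organoids and stood at 0 and 1.63 CPM against 52.5, 138 and 57.6. *Ppic*, a cyclophilin (0 and 1.63 against 22.5, 99.3 and 93.3 CPM), and *Ldhb*, a lactate dehydrogenase subunit (3.05 and 0 against 101, 54.2 and 68.2 CPM), also had 1 UMI there. *Mcam*, an adhesion molecule, went from 3.05 and 1.63 CPM (1 UMI each) to 78.7, 45.1 and 32.4, and *Igf2bp3*, an oncofetal RNA-binding protein, from 0 and 6.53 CPM (0 and 4 UMIs) to 59.9, 49.6 and 63.6. The fitted log2 values of *Hspb1*, *Ppic*, *Ldhb* and *Igf2bp3* reached 8.86, 8.76, 8.76 and 8.33 with a library left out. *Tuba1a*, an alpha-tubulin, rose by 3.46 on the log2 scale (SE 0.59, 3.05 to 4.41 with a library left out) and *Psrc1*, a spindle protein, by 3.24 (SE 0.44). *Psrc1* went from 6.10 and 4.90 CPM, only 2 and 3 UMIs, to 52.5, 52.7 and 53.6 CPM. In -VE-organoid replicate 2, 1 cell held all 3 of its UMIs. The edgeR adjusted p-values of these 7 genes lay between 0.0280 and 0.0464. For all 12 the lowest Hyper-organoid library was above the highest -VE-organoid library. They were chosen on these same sums, and 29.4% of all genes tested had no overlap, so nothing is read from this.

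The genes that fell were led by *Lyz1* and *Duox2* in size, and several were abundant in RSC of -VE-organoids. *Hspa5*, the chaperone BiP of the endoplasmic reticulum, stood at 1245 and 1527 CPM in RSC of -VE-organoids and 367, 649.9 and 536 in those of Hyper-organoids (log2 -1.44, SE 0.23, edgeR adjusted p = 0.0428). *Ero1l*, which oxidizes protein disulfide isomerase, went from 772 and 1147 CPM to 255, 73.7 and 139.7 (-2.70, SE 0.43, adjusted p = 0.0428). *Pgk1*, a glycolytic enzyme and hypoxia target, went from 2271 and 2525 CPM to 955, 1043 and 969.8 (-1.30, SE 0.15, edgeR adjusted p = 0.0243), with a tight spread in both groups. *Ankrd37*, another hypoxia target, fell by 2.23 on the log2 scale (SE 0.37), *Gfpt1*, the entry enzyme of hexosamine synthesis, by 1.84 (SE 0.30), and *F3*, which encodes tissue factor, by 2.25 (SE 0.37). *Klf2*, a transcription factor, went from 94.6 and 65.3 CPM to 3.75, 12 and 7.94 (-3.19, SE 0.40, edgeR adjusted p = 0.0243), and *2610528A11Rik* from 186 and 575 CPM to 33.7, 22.6 and 23.8 (-3.95, SE 0.47, adjusted p = 0.0243). The value of *2610528A11Rik* ranged from -4.56 to -2.88 with a library left out. *Duox2*, a hydrogen peroxide-producing oxidase of mucosal defense, went from 61 and 21.2 CPM to 0, 0 and 0.662 (-6.07, SE 0.93, adjusted p = 0.0402), and all 20 of its UMIs in -VE-organoid replicate 1 lay in the 4 *Spp1* cells. *Lyz1*, the Paneth cell lysozyme, was called (-6.27, SE 0.98, adjusted p = 0.0402), with 91.5% of its UMIs in -VE-organoid replicate 2 held by 1 cell. Single cells also held 57.1% and 56.9% of *Hspa5* UMIs in the -VE-organoid libraries, and 51.6% and 65.0% of those of *Klf2*. *Malat1*, a nuclear noncoding RNA named after its values were seen, also fell, from 7413 and 8296 CPM to 4338, 3604 and 3553 (-1.06, SE 0.14, edgeR adjusted p = 0.0280), and was called in 2 of 5 fits with a library left out. The median share of mitochondrial UMIs in RSC moved with the medium as well, with 7.48%, 7.38% and 8.42% for Hyper-organoids against 5.77% and 5.83% without VPA and EPZ6438. It was not particular to RSC: SC stood at 8.55%, 9.39% and 10.3% against 7.63% and 7.96%, and TA at 8.08%, 8.81% and 9.64% against 7.32% and 7.56%. The part of these measures of RNA quality in the rises and falls was not tested. *Zfand2a* (-2.90, SE 0.43), *Cyp2s1* (-2.31, SE 0.33) and *Gm10639* (-3.53, SE 0.61) completed the 12 largest falls.

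**Figure D4:**
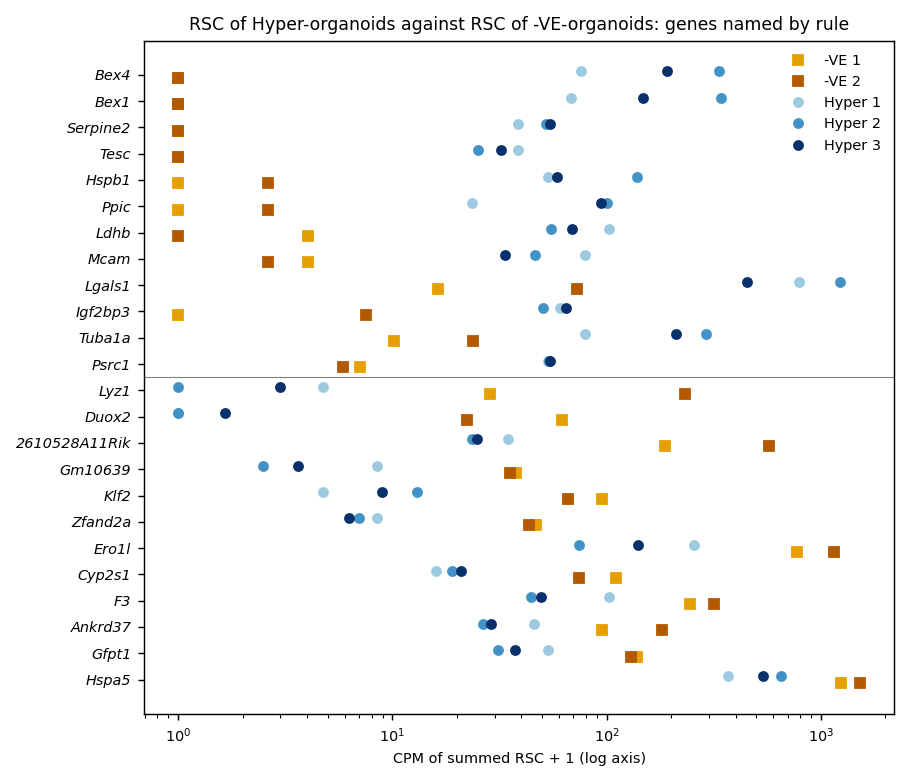
CPM + 1 (log axis) in summed RSC of each library for the 12 largest rises (upper rows) and 12 largest falls (lower rows) called between Hyper-organoids (circles) and -VE-organoids (squares). *Bex4*, *Bex1*, *Serpine2* and *Tesc* are at 0 in both -VE-organoid libraries. The groups of points do not overlap for the genes shown, which were chosen on these sums, nor for 29.4% of all genes tested.

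As lists, few gene groups held a called member in this contrast, in which the median over all genes was 0.00. Of 14 p53 targets tested, 0 passed (median 1.18, 12 above 0), of 19 crypt-base and Wnt genes 0 passed (median 0.90, 17 above 0), and of 14 cholesterol synthesis genes 0 passed (median -0.77, 1 above 0). Among 14 glycolysis genes *Ldhb* rose and *Pgk1* fell (median -0.62, 1 above 0), and among 8 interferon and antigen presentation genes *Bst2* rose (median 1.36, 8 above 0). Most marker lists of differentiated cells with a member tested had negative medians: of 3 Paneth markers tested *Lyz1* fell (median -3.74, 0 above 0), and 0 of 3 goblet (median -2.88, 1 above 0), 0 of 2 enterocyte progenitor (median -2.60, 0 above 0) and 0 of 2 enterocyte markers (median -2.39, 0 above 0) passed. The 1 M cell marker tested stood at 0.72 and did not pass, and no enteroendocrine or tuft marker was tested. Their part in the other falls was not tested. *F3* was the only one of 23 fetal and wound genes (median -0.28) and of 10 YAP/TAZ targets (median 0.34) to pass. *Anxa6* rose and *Anxa4* fell among 10 annexins (median -0.42), and 0 of 17 AP-1 genes passed (median -0.09).

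The same contrast in SC and TA was then set beside that of RSC. In SC alone edgeR called 2230 of 13852 genes (16.1%), with 2024 rises (14.6%) and 206 falls (1.49%), and in TA alone 2552 of 14688 (17.4%), with 2265 rises (15.4%) and 287 falls (1.95%). Sums of SC and TA held many more UMIs than those of RSC, and the numbers called are not comparable. Of the 35 genes called in RSC, 20 were also called in SC with the same sign and 20 in TA, and 0 with the opposite sign. *Bex4* and *Bex1*, *Serpine2*, *Tesc*, *Hspb1*, *Ppic*, *Ldhb*, *Mcam*, *Lgals1*, *Igf2bp3*, *Tuba1a* and *Psrc1*, all 12 named rises, were called in both. Whether the response of RSC differed from that of SC or TA was tested by the class by medium interaction in a fit of 15 sums with library as a block. The clustering behind the classes used these cells of both media, so genes that define a class can differ in response for that reason. The calls include such genes, and nothing is read from their number or direction. Between RSC and SC, 407 of 14515 genes differed (2.8%), of which 105 had a higher response in RSC (0.723%) and 302 a lower one (2.08%). Between RSC and TA 289 differed (1.99%), 75 higher (0.517%) and 214 lower (1.47%). The split of the calls depended on the model: limma voom called 20 higher and 436 lower against SC, 156 of them shared, and 44 and 791 against TA, 186 of them shared. With no replicate block edgeR called 75 and 146 against SC, and 47 and 96 against TA. With each library left out in turn these numbers were 222 to 355 and 163 to 229, and 53 and 32 genes were called in every such fit. Without Hyper-organoid replicate 3 the counts were 222 and 163, and without -VE-organoid replicate 2 the first was 246.

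The 15 genes that fell in RSC were chosen on the same RSC sums that enter the interaction, so their responses are set beside those of SC with no test, and nothing is read from how many of them differed. The log2 fold change of *Hspa5* was -1.44 in RSC and 0.01 in SC, and their fitted difference lay between -1.61 and -1.15 with a library left out. *F3* stood at -2.25 in RSC and 0.82 in SC (difference -3.70 to -2.85), *Klf2* at -3.19 and 0.27 (-3.73 to -3.25) and *Ero1l* at -2.70 and -0.44 (-2.77 to -1.56). Falls were also seen outside RSC: *Lyz1*, *Duox2* and *Gm10639* stood at -1.88, -3.50 and -1.74 in SC and -1.93, -3.12 and -3.16 in TA. Called or not, 9 of the 15 went the same way in SC and 10 in TA. A single cell held 77.5% and 40.9% of the *F3* UMIs of the -VE-organoid libraries, and the part of such cells in these values was not tested.

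**Figure D5:**
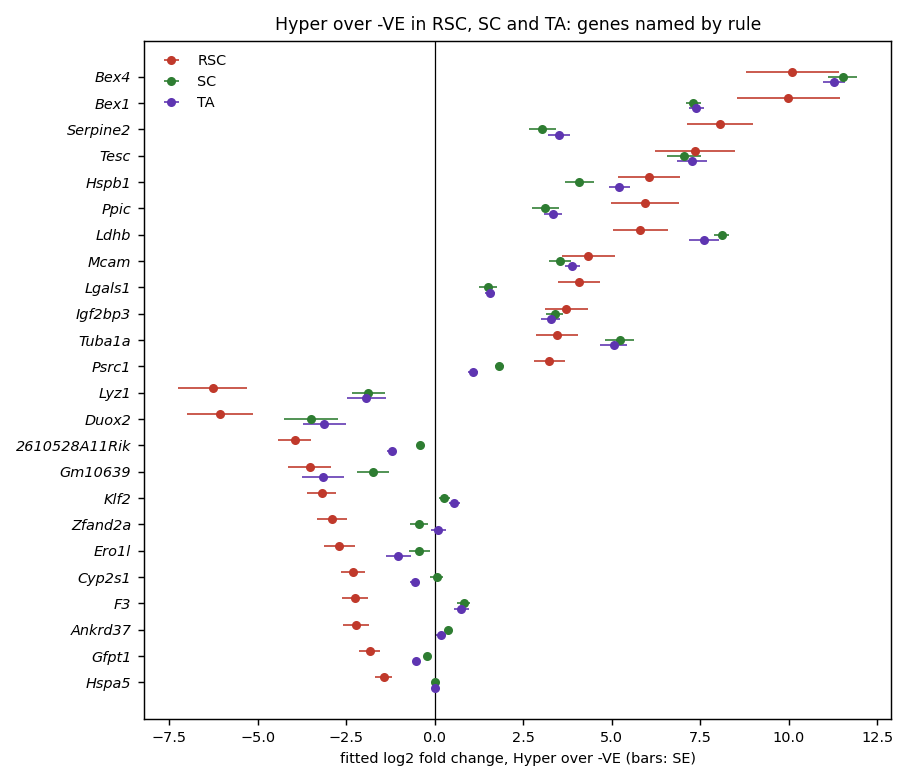
Fitted log2 fold change of Hyper-organoids over -VE-organoids (x axis) in RSC, SC and TA for the genes named by rule. Bars are the approximate SE, the absolute log2 value over the square root of F. The rises point the same way in the 3 classes. Among the falls, *Lyz1*, *Duox2* and *Gm10639* fell in all 3 classes, while *Hspa5*, *Klf2* and *F3* fell in RSC and stand at 0.01, 0.27 and 0.82 in SC.

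For marker and leading genes of RSC the responses are set side by side with no test, because the clustering that gave the classes used these genes in both media and the leading genes were chosen on the same sums. The log2 fold change (Hyper over -VE) of *Anxa1* was -0.01 in RSC (SE 0.24), 3.37 in SC (SE 0.61) and 2.74 in TA (SE 0.43). That of *Ly6a* was 0.71 in RSC, 3.67 in SC (SE 0.92) and 2.20 in TA (SE 1.05), and that of *Clu* 1.25, 2.93 (SE 0.83) and 2.26 (SE 0.80). Thus *Anxa1*, *Ly6a* and *Clu* had larger values in SC and TA, where their CPM levels were far lower, than in RSC. *Capn2* stood at 0.15 in RSC and 3.09 in SC, *Plaur* at -1.29 and 1.07, *Anxa3* at -0.41 and 1.22, and *Anxa2* at -1.19 and 0.22. *Lgals3* stood at -0.71 in RSC and 1.31 in SC, *Areg* at -0.48 and 1.49, *Sprr1a* at -0.60 and 2.88, and *S100a6* at 0.06 and 0.80. Without -VE-organoid replicate 2 the fitted differences between RSC and SC of *Lgals3*, *Areg* and *Sprr1a* were -0.84, -0.90 and -0.67, against -1.93, -2.12 and -3.52 with all libraries. For *Clu* the difference was -1.48, which became -2.94 without that library and 0.40 without -VE-organoid replicate 1. Of 25 crypt-base and Wnt target genes, 21 had a larger value in RSC than in SC (median difference 1.10, against 0.08 over all genes). Among them, *Olfm4* stood at -1.57 in RSC and -3.33 in SC, *Axin2* at 2.14 and 0.20, and *Ascl2* at 1.90 and -0.61. The difference of *Olfm4* was -0.11 without Hyper-organoid replicate 1. In CPM, *Axin2* stood at 24.4, 19.6, 146, 94.8 and 65.5 in RSC and 79.2 to 123 in SC. Of the 78 genes higher in RSC, 32 had a lower response than in SC and 1 a higher one (2.08% and 0.723% of all genes). The 78 were chosen on the same sums, so nothing is read from these counts.

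Finally, the leading genes of RSC were followed in the colonic crypts, which were not used to choose them, with DSS as the injury. Cells with a *Ptprc* UMI were left out, which kept 932 cells of normal and 1564 of DSS crypts, with 18917708 and 30307254 UMIs. With 1 library each there is no replicate check, and the intervals (exact Poisson, 95%) cover counting error only. *Clu* was higher in DSS crypts, at 57.7 CPM (55.1 to 60.5) against 7.72 (6.52 to 9.08), a difference of 2.75 in log2(CPM + 1). *Ly6a* was lower, at 598 CPM (589 to 606) against 1216 (1201 to 1232), a difference of -1.02. These were the only members past 2-fold among 19 leading higher genes tested, against 2.99% of 12090 genes higher and 1.69% lower, and the median difference of the 19 was 0.14. *Anxa1* stood at 246 and 279 CPM, *S100a6* at 5827 and 5851, *Lgals3* at 2820.1 and 2092, *S100a11* at 199 and 395 and *Sprr1a* at 145 and 192, in normal and DSS crypts. Among 14 leading lower genes *Smoc2* was higher in DSS crypts (8.99 and 22.5 CPM), and the median was -0.24.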

How the data were processed

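Single-cell 3′ libraries of 8 organoid cultures and 2 colonic crypt samples were used as deposited. Per the labels and file headers, the authors aligned reads to mm10 and made UMI counts with Cell Ranger (3.0.0 in the processing notes, 3.1.0 in the matrix headers), kept cells and clustered them with Seurat 3.1.4, and found RSC by a finer clustering. The authors' stated limits (1500 genes, 25% mitochondrial UMIs) are not met by every kept cell, so the deposited annotation was taken as it is. The deposited kept-cell table holds raw UMI counts of 23810 of 31053 genes and equals the library matrices over RSC in every entry. No doublet caller was run here. Of RSC, 0, 0, 1, 2 and 5 lay above the 95th percentile of UMIs of their library. A total of 71 gene identifiers share a symbol with another.

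Counts were summed per library and class (Python 3.11.15, numpy 2.4.6, pandas 2.3.3, scipy 1.17.1, matplotlib 3.10.9). RSC were compared with SC and TA as differences of log2(CPM + 10) within libraries. Hyper-organoids were compared with -VE-organoids by edgeR 4.0.16 (TMM, filterByExpr, quasi-likelihood F test, Benjamini-Hochberg adjustment, at least 2-fold) in R 4.3.3, and responses by the class by medium interaction over 15 sums with library as a block. DESeq2 1.42.0, limma 3.58.1 voom (added after the data were seen), other filters, pseudocounts, thinning to 10000 and 20000 UMIs and omission of each library were alternatives. Shares have exact binomial 95% intervals, and a floor is 3 counts. The SE of an edgeR value was not estimated by the model. It is the absolute log2 fold change over the square root of F. On simulated data edgeR recovered 179 of 200 genes changed 4-fold in the RSC comparison (13 false calls among 6733 genes), 93 of 200 in the interaction with SC (3 among 14378) and 112 of 200 in that with TA (24 among 14359). Only genes with higher mean fitted counts were changed, and each gene had the same dispersion in all classes. False calls where the classes differ in spread, and recovery of rarer genes, were thus not checked.

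Genes named are the members of fixed lists that pass, the 20 higher and 15 lower genes of RSC with the largest smallest difference, the 12 largest rises and falls called in RSC, and the 8 largest interactions each way. Genes outside this rule, such as *Malat1*, and list members that did not pass, such as *Fosl1* and *Cdkn2a*, were named after their values were seen. Some members of these lists are not reported here. The cells, gene lists and tests were chosen with earlier results of these data known. The main comparison of media in RSC did not pair libraries by culture series, although -VE- and Hyper-organoid libraries of one series had the same origin and passage. Deviations from group means of libraries of one culture series correlated at -0.0939 and -0.181 over 7148 genes. These values cannot show whether the libraries were paired, because the RSC sums are small and the deviations of the -VE-organoid libraries mirror each other.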

Additional observations from a re-analysis of the deposited data

Results flagged for a closer look

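The largest differences of response between RSC and the other classes (Hyper-organoids over -VE-organoids, edgeR interaction, log2) rested on few cells. Genes with a lower response in RSC than in SC were *Tmem229a* (-17.66), *Scn8a* (-14.97), *Lrg1* (-14.50), *Akr1b7* (-12.09), *Muc1* (-11.68), *Fam124a* (-11.25), *Spp1* (-10.90) and *Fign* (-10.09). Against TA they were *Scn8a* (-14.27), *Tmem229a* (-14.16), *Lrg1* (-11.10), *Fign* (-10.91), *Cxcl5* (-9.18), *Atp10a* (-9.02), *Wfdc2* (-8.37) and *Aspa* (-7.95). These values are not bounds of a fold change, since the sums behind them include zeros. RSC of -VE-organoid replicate 1 held 232 UMIs of *Wfdc2*, 189 of *Spp1*, 141 of *Cxcl5*, 69 of *Muc1* and 38 of *Lrg1*, but 17 of *Scn8a*, 11 of *Akr1b7*, 9 of *Aspa*, 8 of *Tmem229a*, 4 of *Fign* and 3 each of *Fam124a* and *Atp10a*. RSC of -VE-organoid replicate 2 held 0 to 2 UMIs of each, and the larger sums of Hyper-organoids up to 173 of *Spp1* and 98 of *Wfdc2*. None was called without -VE-organoid replicate 1.

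Genes with a higher response in RSC than in SC were *1700097N02Rik* (12.61), *Gm5485* (11.73), *Supt7l* (11.55), *Nox1* (5.16), *AU020206* (4.17), *Ccdc125* (3.67), *Aqp1* (3.46) and *Taok2* (2.95), and against TA the same genes stood at 12.59, 11.82, 11.43, 4.72, 3.74, 3.70, 3.67 and 2.82. RSC of -VE-organoids held 0 to 2 UMIs of each per library. These calls were seldom kept with a library left out: against SC *Aqp1* passed in 4 of 5 such fits, *1700097N02Rik*, *Nox1*, *AU020206* and *Taok2* in 2, *Gm5485* and *Ccdc125* in 1 and *Supt7l* in 0. Against TA *Aqp1* passed in 4, *Nox1* and *AU020206* in 1, and the other 5 in 0. With a library left out the difference from SC ranged from 3.62 to 12.29 for *AU020206* and from 3.04 to 11.91 for *Ccdc125*. *Aqp1*, which encodes the water channel aquaporin 1, had the highest levels of them, at 3.05 and 3.27 CPM in RSC of -VE-organoids and 82.4, 24.1 and 37.7 in those of Hyper-organoids (SC 60.7 to 102). *AU020206* stood at 0, 1.63, 3.75, 16.5 and 12.6 CPM and *Taok2*, a stress-activated kinase, at 3.05, 1.63, 15, 13.5 and 13.2.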

How the results depend on the processing

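The number of genes called between Hyper-organoids and -VE-organoids in RSC (35) was 95 with DESeq2, 471 without a filter on low counts, 3 after thinning (2606 genes tested), 235 in the 3 libraries with at least 10 RSC (1 of them -VE, assumed to vary like the Hyper-organoids), 332 in one fit of the 3 classes and 0 to 36 with a library left out. With culture series as replicate block it was 11, of which 5 were shared. For the interaction with SC (407) it was 629 with DESeq2, 698 without the filter, 189 after thinning, 221 with no replicate block and 222 to 355 with a library left out. For that with TA (289) it was 618, 586, 134, 143 and 163 to 229, and 835 with limma voom. Genes higher in RSC (78) numbered 141 with a pseudocount of 1 CPM, 32 with 50 CPM and 86 to 100 with a library left out, and genes lower (17) 31, 5 and 17 to 27 (27 without Hyper-organoid replicate 3). RSC with all 3 markers made up 70.6% (unthinned) and 66.7% (20000 UMIs) in -VE-organoid replicate 2, 100% and 92.9% in Hyper-organoid replicate 2, and 85.7% and 83.1% over 5 libraries. Leading genes lower in DSS crypts numbered 2 with a pseudocount of 0.5 CPM.

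Several log2 values changed sign. Within RSC *Anxa1* stood at 0.024 with the replicate block and from -0.19 to 0.11 with a library left out, and *S100a6* at -0.045 thinned, -0.18 without cells above the 95th percentile of UMIs, -0.43 in libraries with at least 10 RSC, -0.000616 in one fit of the classes and -0.57 to 1.15 with a library left out. Differences from SC with a library left out ranged from -4.33 to 12.63 for *Nox1*, -12.78 to 3.03 for *Muc1*, -11.97 to 5.29 for *Spp1*, -11.19 to 0.50 for *Fign*, -2.94 to 0.40 for *Clu*, -0.86 to 0.31 for *S100a6* and -0.11 to 2.31 for *Olfm4*, and those from TA from -4.79 to 12.27 for *Nox1* and -10.67 to 6.29 for *Cxcl5*. Thinned, *Nox1* stood at -4.12 (SC) and -5.29 (TA), *Fam124a* at 0.88 and *Fign* at 0.44, and *Olfm4* at -0.078 without cells above the 95th percentile. The lowest *Sprr1a* difference was -0.41 without cells above the 95th percentile of UMIs. The cause was not tested. The smallest RSC sum held 266921 UMIs from 5 cells, where 3 counts are 11.2 CPM.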
